A study of Homo sapiens with 15 samples.

Results

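The human mitochondrial genome carries 37 genes, and RNA counts of these genes are described here in IGROV-CP20 cells, a cisplatin-resistant line derived from human ovarian cancer. The members are all genes that GENCODE 29 places on chromosome M of GRCh38. They comprise 13 mRNAs, 2 rRNAs (MT-RNR1 and MT-RNR2) and 22 tRNAs, and all 37 were present among the 47634 gene identifiers of each count table. After the filter on low counts 11113 genes were tested, and 26 of the 37 members were among them: the 13 mRNAs, both rRNAs and 11 tRNAs. The filter asks for counts in at least as many libraries as a condition holds, so the remaining 11 tRNAs are given below by their counts only.

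RNA was read by Lexogen QuantSeq, which primes cDNA synthesis with oligo(dT) and sequences a fragment near the priming site, here with reads of 75 bp from 100 ng of RNA. The study asked how 3 approved drugs alter the response of these cells to cisplatin, a platinum compound that crosslinks DNA. It compared 5 conditions with 3 biological replicates each, 15 libraries in all. In 1 condition the cells were left untreated, and in another they received cisplatin alone (50 µM, 24 h). In the other 3 conditions a drug had acted for 24 h at 10 µM when this cisplatin exposure began, and the drug was Telmisartan, Tranilast or Amphotericin B. All conditions share the same resistant line, and no library of cells given a drug without cisplatin was analysed here. GEO's labels number the replicates but do not pair them across conditions. Tranilast is an anti-allergic agent, Telmisartan an angiotensin receptor blocker and Amphotericin B an antifungal polyene.

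Both strands of the mitochondrial genome are transcribed as long precursors, in which tRNAs lie between most of the mRNAs and rRNAs and mark the sites of cutting. Most genes, including both rRNAs, are read from the heavy-strand precursor, whereas MT-ND6 and several tRNAs come from the light-strand precursor. The rRNAs stand near the start of the heavy-strand precursor and form the mitochondrial ribosome together with imported proteins. The mRNAs encode subunits of respiratory complexes I, III, IV and V, and the other subunits are encoded in the nucleus. Polyadenylation of these mRNAs also completes stop codons that the genome encodes only in part. The mitochondrial rRNAs carry short A tails, and mature tRNAs end in CCA. Cisplatin forms adducts with mitochondrial DNA as well as with nuclear DNA.

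The annotated mRNA genes end in different ways, and the last 30 bases of 8 of them are shown. They were chosen because these genes either rose most with cisplatin or did not pass the test. An annotated gene end need not be the end of an RNA: that of MT-ATP8 lies within MT-ATP6, with which it shares 46 bases. Capitals mark the stop codon bases that the genome itself encodes, each line runs 5′ to 3′ in the sense of the RNA, and the sequences and coordinates are those of the GENCODE 29 transcripts on GRCh38. The first 4 rose most with cisplatin among the mRNAs of the heavy-strand precursor. They lie at chrM:3307-4262 (MT-ND1), chrM:4470-5511 (MT-ND2), chrM:5904-7445 (MT-CO1) and chrM:7586-8269 (MT-CO2), all on the plus strand.
MT-ND1: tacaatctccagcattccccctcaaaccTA
MT-ND2: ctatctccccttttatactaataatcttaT
MT-CO1: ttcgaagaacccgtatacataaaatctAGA
MT-CO2: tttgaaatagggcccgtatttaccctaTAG
The next 4 did not pass the test with cisplatin, which was also so for MT-ND4. They lie at chrM:8366-8572 (MT-ATP8), chrM:9207-9990 (MT-CO3), chrM:10059-10404 (MT-ND3) and chrM:14747-15887 (MT-CYB), also on the plus strand.
MT-ATP8: tcgcttcattcattgcccccacaatccTAG
MT-CO3: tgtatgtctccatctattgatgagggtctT
MT-ND3: gactacaaaaaggattagactgaaccgaaT
MT-CYB: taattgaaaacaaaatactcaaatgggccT
Of the 13 mRNA genes, 5 end in a single encoded T (MT-ND2, MT-CO3, MT-ND3, MT-ND4 and MT-CYB) and MT-ND1 ends in TA. Incomplete stops stand among the mRNAs that rose most and among those that did not pass the test.

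Whole tRNAs are shown for MT-TF and MT-TC, which rose most with cisplatin among all members, for MT-TL1, which gave the most counts of the tRNAs, and for a pair with no counts. Capitals mark runs of at least 4 A, to which oligo(dT) can anneal. MT-TF (phenylalanine) lies at chrM:577-647 on the plus strand, MT-TL1 (leucine) at chrM:3230-3304 on the plus strand and MT-TC (cysteine) at chrM:5761-5826 on the minus strand.
MT-TF: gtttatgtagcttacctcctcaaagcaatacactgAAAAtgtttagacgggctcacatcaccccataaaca
MT-TL1: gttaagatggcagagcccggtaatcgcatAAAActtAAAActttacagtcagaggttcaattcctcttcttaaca
MT-TC: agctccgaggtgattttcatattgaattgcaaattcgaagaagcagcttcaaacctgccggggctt
MT-TW (tryptophan, chrM:5512-5579, plus strand) and MT-TK (lysine, chrM:8295-8364, plus strand) had no count in any library.
MT-TW: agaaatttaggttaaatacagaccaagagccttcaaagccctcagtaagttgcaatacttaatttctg
MT-TK: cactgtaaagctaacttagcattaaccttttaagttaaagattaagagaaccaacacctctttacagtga
MT-TC holds no such run and had 55 to 873 counts in every library, and neither MT-TW nor MT-TK holds one. Among the tRNAs not shown, runs and counts did not always go together. Over the 15 libraries MT-TP, without a run, summed to 7092 counts, and MT-TG, with a run of 6 A, to 6.

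Total counts per library ranged from 1510620 to 3517041. Of the 3 libraries of each condition, those of untreated cells, Tranilast and Amphotericin B lay close together, whereas cisplatin replicate 1 and Telmisartan replicate 3 stood apart from the other libraries with the same label. The chi-square per degree of freedom between libraries of a condition was 2.24 to 8.07 for pairs without these 2 libraries and 26.4 to 44.1 for pairs with 1 of them. Members whose calls rest on cisplatin replicate 1, and the counts of calls, are given with and without it. Epithelial markers were in part detected: KRT18 was counted at 97.4 to 157 CPM and EPCAM at 9.27 to 50.3 CPM, while PAX8, WT1, KRT7 and MSLN had at most 1 count in a library. CPM of markers are counts scaled to library size only, without TMM factors. Of the 11 markers of other cell types, CD3E, VWF, INS and MYH7 had no count, and the highest were PTPRC at 2.3 to 87.3 CPM and COL1A1 at 7.43 to 40.7 CPM. Their part in the results was not tested.

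The rRNAs took the largest part of the shift in mitochondrial counts. As a share of all counts on genes, the 2 rRNAs took 1.79, 2.20 and 2.11% of the untreated libraries in the order of replicates 1 to 3. They took 13.7, 5.61 and 3.41% with cisplatin alone. All cisplatin libraries were above all untreated ones, and replicate 1 stood far above the other 2. With Tranilast before cisplatin the share was 2.53, 2.10 and 2.17%, which overlapped the untreated range and lay below every library of cisplatin alone. With Telmisartan it was 10.8, 12.9 and 3.61%, so that replicates 1 and 2 were high and replicate 3 lay at the level of the lowest cisplatin library. With Amphotericin B it was 13.6, 12.3 and 14.8%, high in all 3. Group means were 2.03 ± 0.216% (SD, n = 3) in untreated cells, 7.58 ± 5.42% with cisplatin, 9.11 ± 4.88% in Telmisartan libraries and 13.6 ± 1.27% with Amphotericin B. The share with Tranilast was 2.27 ± 0.23%.

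The summed share of the 13 mRNAs moved far less. It was 2.24, 3.26 and 3.36% in untreated cells, 3.55, 5.09 and 3.39% with cisplatin and 3.58, 3.24 and 3.14% with Tranilast. It was 2.75, 2.96 and 3.95% in Telmisartan libraries and 3.04, 3.0 and 4.10% with Amphotericin B. The conditions overlapped in this sum, except that all cisplatin libraries lay above the untreated ones, the closest at 3.39% against 3.36%. The 22 tRNAs followed the rRNAs instead: their share was 0.0868, 0.104 and 0.0863% in untreated cells, 1.04, 0.317 and 0.214% with cisplatin, 0.986, 0.995 and 0.179% in Telmisartan libraries and 1.40, 1.13 and 1.75% with Amphotericin B. The share with Tranilast was 0.137, 0.133 and 0.125%. These shares are sums over the members, given without a test. Counts are relative to the rest of a library, so that more mitochondrial RNA per cell, more mitochondria per cell and less nuclear RNA cannot be told apart.

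**Figure D1:**
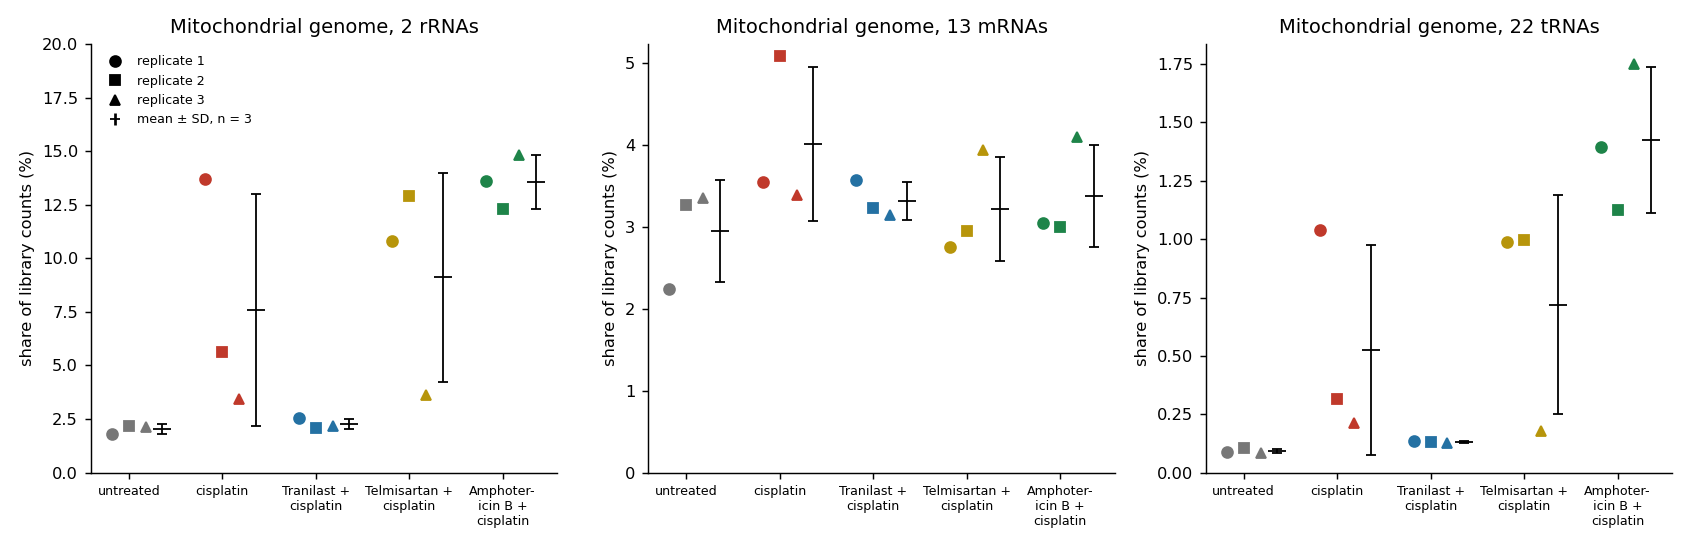
Share of all counts on genes (%, y axis) taken by the 2 rRNAs, 13 mRNAs and 22 tRNAs of the mitochondrial genome in each of the 15 libraries, by condition (x axis), with marker shape for the replicate number and bars for the mean ± SD (n = 3). The rRNA and tRNA shares are low in untreated and Tranilast libraries, high in all 3 Amphotericin B libraries, and split among the libraries of cisplatin and Telmisartan.

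Nuclear counts were set beside the rRNA share. The 100 most abundant nuclear genes took 23.3, 23.4 and 23.5% of nuclear counts in untreated cells and 22.5, 22.8 and 21.9% with Tranilast. They took 38.6, 30 and 26.6% with cisplatin, 32.6, 34.4 and 22.4% in Telmisartan libraries and 36.5, 35.5 and 35.7% with Amphotericin B. Cisplatin replicate 1 was again the highest of its condition and Telmisartan replicate 3 the lowest of its own. The CPM given next for RNAs without a poly(A) tail carry no TMM factors, whereas their fold changes by edgeR do. RMRP, a nuclear RNA without a poly(A) tail, read 4.83, 3.33 and 1.77 CPM in untreated cells, 67.9, 11.1 and 8.09 with cisplatin, 72.9, 78.7 and 6.03 in Telmisartan libraries and 112, 60.2 and 150.0 with Amphotericin B. It read 4.62, 3.33 and 4.83 CPM with Tranilast. SNORD3A, a small nucleolar RNA that also lacks the tail, read 2.60, 1.33 and 2.95 CPM in untreated cells and 63.5, 20.3 and 8.09 CPM with cisplatin. With cisplatin against untreated cells the log2 fold change (log2FC, given ± SE throughout) was 4.24 ± 0.86 for SNORD3A (adjusted p = 8.57e-04) and 3.71 ± 0.99 for RMRP (adjusted p = 0.00611), and with Tranilast against cisplatin alone it was -4.74 ± 0.91 and -3.41 ± 0.96. With cisplatin replicate 1 left out SNORD3A was at 2.81 ± 0.77 (adjusted p = 0.00592) and -3.31 ± 0.82 (adjusted p = 0.00697) in these comparisons, whereas RMRP was at 1.76 ± 0.97 (adjusted p = 0.143) and -1.46 ± 0.93 (adjusted p = 0.261), no longer past 0.05. The remaining tested nuclear RNA without a tail, TERC (the RNA of telomerase), read 14.9, 11.3 and 10.3 CPM in untreated cells, 27.3, 12.4 and 9.79 with cisplatin and 20.3, 13.3 and 17.6 with Tranilast. It read 19.4, 24.4 and 7.04 CPM in Telmisartan libraries and 23.5, 27.1 and 14.5 with Amphotericin B. TERC overlapped between untreated cells and cisplatin and between cisplatin and Tranilast, at 0.91 ± 0.50 (adjusted p = 0.149) and -0.52 ± 0.49 (adjusted p = 0.467), and passed in neither comparison. The part of these RNAs in the rRNA and tRNA results below was not tested.

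MT-RNR2 gave the most counts of all members in every library. It encodes the rRNA of the large mitochondrial ribosomal subunit and stood at 12533, 16033 and 15511 CPM in untreated cells and 144050.3, 47246 and 25543 CPM with cisplatin. CPM of members are scaled to library size with TMM factors, as edgeR gives them, unless stated otherwise. The groups did not overlap, and the log2FC was 2.3 ± 0.58 (adjusted p = 0.00397, edgeR). MT-RNR1, the rRNA of the small subunit, stood at 2735, 2838 and 2639 CPM in untreated cells and 45848, 12149.6 and 6118 CPM with cisplatin. Its log2FC was 2.96 ± 0.64 (adjusted p = 0.00137), again with no overlap. Without cisplatin replicate 1 the log2FC were 1.31 ± 0.47 (adjusted p = 0.0288) for MT-RNR2 and 1.74 ± 0.49 (adjusted p = 0.00711) for MT-RNR1. The size of both increases thus rests in part on that library, while both stayed past the threshold of 0.05 without it.

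The 2 rRNAs did not keep a fixed proportion. The log2 ratio of MT-RNR1 to MT-RNR2 counts was -2.20, -2.50 and -2.56 in untreated cells, -1.65, -1.96 and -2.06 with cisplatin, -1.5, -1.55 and -2.08 in Telmisartan libraries and -1.53, -1.22 and -1.35 with Amphotericin B. With Tranilast it was -2.26, -2.27 and -2.31. The ratio lay above the untreated range in every library of cisplatin, Telmisartan and Amphotericin B, and within it with Tranilast. A ratio within a library does not depend on how libraries are scaled.

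Among the mRNAs, MT-CO3 (a subunit of complex IV) gave the most counts in every untreated library, at 32.5, 32.0 and 30.3% of the mitochondrial mRNA counts. Its share was 17.6, 22.2 and 26.7% with cisplatin and 17.7, 23.2 and 16.9% with Amphotericin B, against 32.4, 33.9 and 33.6% with Tranilast. MT-CO1, the catalytic subunit of complex IV, moved the other way, from 3.18, 2.73 and 2.64% in untreated cells to 12.4, 7.64 and 6.57% with cisplatin and 16.3, 13.3 and 16.5% with Amphotericin B. It stood at 4.0, 4.03 and 3.80% with Tranilast. The shares of these mRNAs of 1 complex and 1 precursor thus went opposite ways. Shares sum to a whole, so a lower share need not be a lower level. With TMM factors MT-CO3 stood at 7969 ± 1523 CPM (SD, n = 3) in untreated cells. It stood at 9671 ± 1986 CPM with cisplatin and 8123 ± 899 CPM with Amphotericin B.

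Scaled by gene length, MT-ATP8 (12163 ± 3468 CPM per kb of gene, without TMM scaling; SD, n = 3) and MT-CO3 (11859.9 ± 2232) were the highest mRNAs in untreated cells, followed by MT-ND3 (8547 ± 1345). The means of MT-ATP8 and MT-CO3 differed by less than their spread. The lowest were MT-ND6 (276 ± 75.9), MT-CO1 (538 ± 66.6), MT-ND5 (664 ± 151) and MT-ND1 (667 ± 120.2 CPM per kb). MT-ND5 and MT-ND1 also differed by less than their spread. With Amphotericin B the order changed: MT-CO3 (8201 ± 1161) was followed by MT-ND4 (5484 ± 1815 CPM per kb), and MT-ATP8 (3745 ± 220.4) stood near MT-CO1 (3396 ± 912) and MT-ND1 (3274 ± 488 CPM per kb). Reads come from the primed end only, so that this scale favours short genes, and MT-ATP8 shares 46 bases with MT-ATP6.

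With cisplatin against untreated cells, 19 of the 26 tested members rose and 0 fell by the edgeR test. Over all 11113 genes tested, 21.1% were called higher and 23.6% lower. The 0 lower calls were the same by DESeq2 and limma-voom, and 0 members had a negative log2FC with an unadjusted p under 0.05. The median log2FC of the tested members was 1.83, against -0.01 for all genes. The rises comprised 8 of 13 mRNAs, both rRNAs and 9 of 11 tested tRNAs, of which MT-TE, MT-TM and MT-TS2 were kept by the filter through treated libraries. By strand they were 14 of 20 members of the heavy-strand precursor and 5 of 6 of the light-strand precursor. By complex they were 5 of 7 mRNAs of complex I, 0 of 1 of complex III, 2 of 3 of complex IV and 1 of 2 of complex V. In 18 of 26 members the groups did not overlap, as in 53.5% of all genes. Without cisplatin replicate 1, 16 members rose, and of the 8 mRNAs only MT-ND5 was no longer past the threshold. Over the 26 members Spearman's rho between log2FC and gene length was -0.30, with the share of A -0.06 and with the longest run of A -0.23, given as descriptions of genes from the same libraries.

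The mRNAs near the start of the heavy-strand precursor rose most. MT-ND1, a membrane subunit of complex I and the first mRNA after the rRNAs, stood at 434, 579.6 and 626 CPM in untreated cells and 6064, 3625 and 1747 CPM with cisplatin. The groups did not overlap and the log2FC was 2.80 ± 0.43 (adjusted p = 8.45e-05), or 6.97-fold. MT-ND2, also of complex I, stood at 895, 1516 and 1625 CPM and 4591, 4031 and 2169 CPM, with a log2FC of 1.42 ± 0.29 (adjusted p = 9.57e-04). MT-CO1 rose from 607, 765 and 761 CPM to 6103, 4119 and 2066 CPM, with a log2FC of 2.53 ± 0.39 (adjusted p = 8.35e-05). MT-CO2, which holds the copper site that takes electrons from cytochrome c, rose from 871, 1134 and 1365 CPM to 3250.1, 4009.7 and 2148 CPM. Its log2FC was 1.48 ± 0.25 (adjusted p = 1.96e-04). None of these 4 mRNAs overlapped between the groups. Without cisplatin replicate 1 MT-ND1 was at 2.3 ± 0.38 and MT-CO1 at 2.12 ± 0.36 on the log2 scale.

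The mRNAs in the second part of the precursor moved less. MT-ATP8, a small subunit of ATP synthase (complex V), was at 1444, 2572 and 2459 CPM in untreated cells and 3010.1, 4126 and 2357 CPM with cisplatin (log2FC 0.55 ± 0.32, adjusted p = 0.17). MT-ATP6, the proton channel subunit of the same complex, was at 1665, 2614 and 2603 CPM and 3103, 5633 and 3144 CPM, and passed the test at a log2FC of 0.79 ± 0.27 (adjusted p = 0.0256). MT-CO3 was at 6215, 8959.7 and 8731 CPM and 8663, 11959 and 8391 CPM, a log2FC of 0.28 ± 0.25 (adjusted p = 0.387). MT-CO3 and MT-ATP8 overlapped between the groups, whereas MT-ATP6 did not.

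Of the later subunits of complex I, MT-ND3 stood at 2109.6, 2574 and 2919 CPM and 2038, 3659 and 2445 CPM (log2FC 0.10 ± 0.25, adjusted p = 0.77). MT-ND4L rose from 321, 359 and 352 CPM to 977, 929 and 571 CPM, a log2FC of 1.26 ± 0.26 (adjusted p = 0.00101). The downstream MT-ND4, which shares 7 bases with MT-ND4L, was at 2538, 3925 and 4403 CPM and 7145, 7079 and 3801 CPM (log2FC 0.73 ± 0.30, adjusted p = 0.0586). MT-ND4L thus passed the test while MT-ND3 and MT-ND4 on its sides did not, and the difference between these genes was not tested. MT-ND5 was at 756, 1173 and 1164 CPM and 1992, 2065 and 1179 CPM, with a log2FC of 0.76 ± 0.26 (adjusted p = 0.0268), but it was at adjusted p = 0.0604 without cisplatin replicate 1. MT-CYB, the only mitochondrially encoded subunit of complex III and the last mRNA of the precursor, was at 1153, 1701 and 1681 CPM and 1263, 1830.0 and 1152 CPM. It overlapped between the groups and its log2FC was -0.10 ± 0.23 (adjusted p = 0.758).

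MT-ND6 is the only mRNA of the light-strand precursor and encodes a further subunit of complex I. It stood at 85.9, 134 and 153 CPM in untreated cells and 944, 876 and 287 CPM with cisplatin, with a log2FC of 2.50 ± 0.39 (adjusted p = 1.02e-04). The groups did not overlap. The sources used here do not give the strand setting of the counting, and without it reads of the opposite precursor over the same bases cannot be told apart from MT-ND6. The same holds for the light-strand tRNAs.

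**Figure D2:**
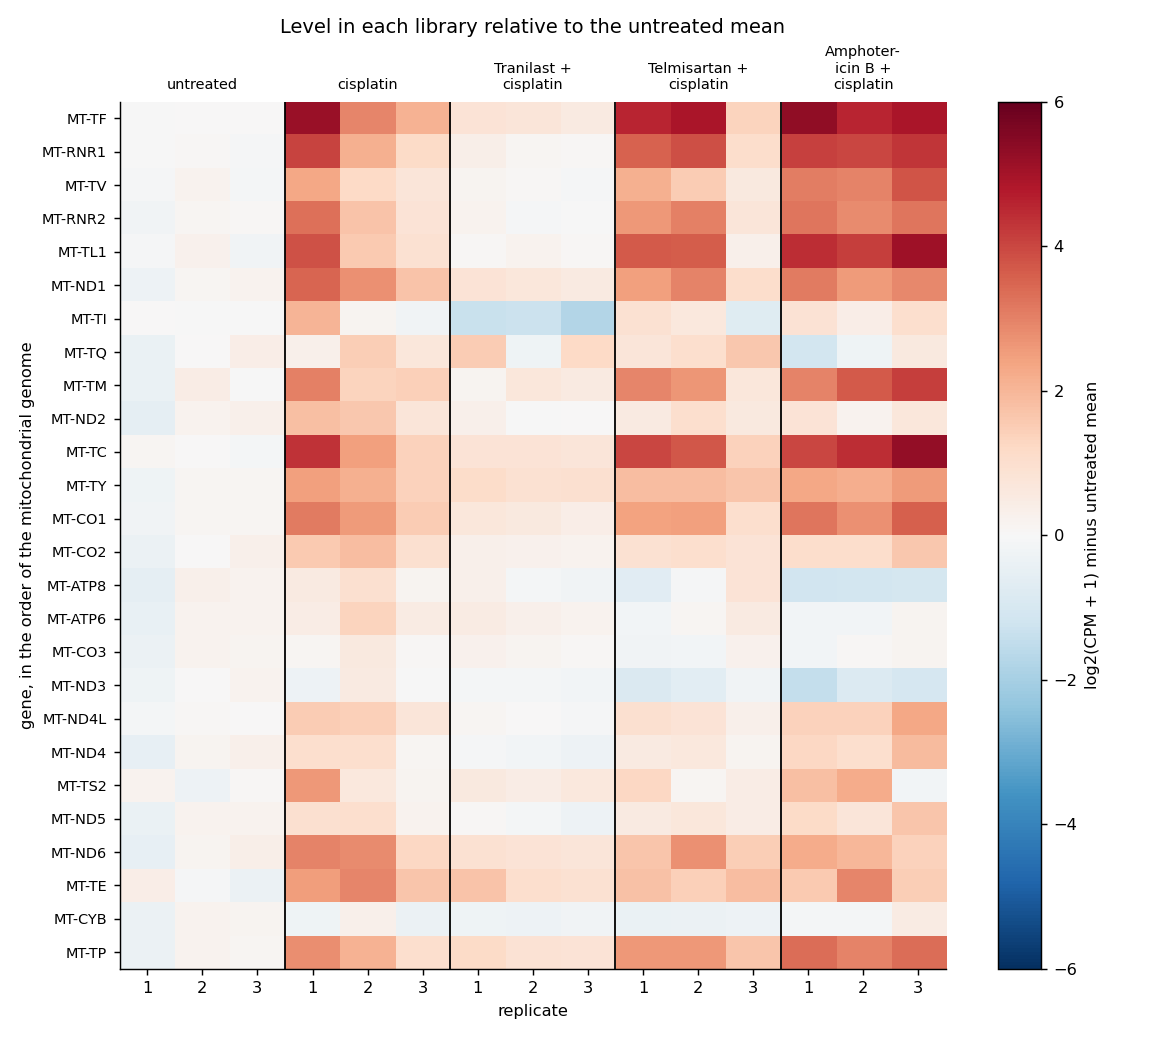
Level of each of the 26 tested members in each library, as log2(CPM + 1) minus the mean of the 3 untreated libraries (colour), with genes in genome order (rows) and libraries by condition and replicate (columns). MT-TF, MT-RNR1, MT-TL1 and MT-TC are highest in Amphotericin B libraries, in cisplatin replicate 1 and in Telmisartan replicates 1 and 2, while MT-CO3 (6215 to 11959 CPM) and MT-CYB (1117 to 1830.0 CPM outside Amphotericin B replicate 3) vary little.

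The tRNAs gave few counts apart from a small number of genes. MT-TL1 held the most, with 1294, 1824 and 1491 counts in the untreated libraries, followed by MT-TF with 604, 688 and 784 counts. MT-TF, which precedes MT-RNR1, stood at 191, 197 and 198 CPM in untreated cells and 7146, 1475 and 847 CPM with cisplatin, a log2FC of 4.01 ± 0.74 (adjusted p = 3.96e-04). This was the largest change of any member in the comparison. MT-TV (valine), between the 2 rRNAs, stood at 15.2, 18.6 and 14.4 CPM and 83.5, 37.6 and 26.9 CPM, with a log2FC of 1.60 ± 0.39 (adjusted p = 0.00363). MT-TL1, which follows MT-RNR2, rose from 410.2, 522 and 377 CPM to 6049, 1265 and 804 CPM, with a log2FC of 2.63 ± 0.69 (adjusted p = 0.00529). The tRNA genes flanking the rRNAs thus rose with them. These genes abut the rRNA genes without a gap. MT-TF is 71 bases long, MT-TV 69 and MT-TL1 75, no longer than the reads of 75 bp. Whether their counts come from mature tRNAs or from uncut precursor was not tested. Without cisplatin replicate 1 MT-TF was at 2.57 ± 0.55 (adjusted p = 8.23e-04) and MT-TL1 at 1.24 ± 0.54 (adjusted p = 0.0636), so the call of MT-TL1 rests on that library.

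Of the tRNAs on the light strand, MT-TC stood at 17.4, 16.0 and 14.7 CPM in untreated cells and 344, 91.7 and 43.4 CPM with cisplatin, a log2FC of 3.3 ± 0.65 (adjusted p = 6.85e-04). MT-TY (tyrosine), which shares 1 base with MT-TC, stood at 37.4, 47.8 and 48.6 CPM and 246, 196 and 116 CPM, and its log2FC of 2.05 ± 0.23 had the smallest adjusted p among the members (7.47e-06). MT-TP (proline) rose from 42.2, 63.2 and 58.7 CPM to 374, 229 and 109 CPM, a log2FC of 2.11 ± 0.34 (adjusted p = 1.20e-04). The groups did not overlap for these 3 genes, and they stayed past the threshold without cisplatin replicate 1.

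The other tested tRNAs rest on low counts. MT-TE (glutamate) had 6, 4 and 3 counts in untreated and 21, 33 and 15 counts in cisplatin libraries, and rose by a log2FC of 3.12 ± 0.54 (adjusted p = 2.12e-04). MT-TM (methionine) had 6, 15 and 11 and 55, 18 and 24 counts, a log2FC of 2.38 ± 0.61 (adjusted p = 0.00465). MT-TS2 (serine) had 4, 2 and 4 and 19, 4 and 3 counts, a log2FC of 2.13 ± 0.80 (adjusted p = 0.037), which without cisplatin replicate 1 was 0.67 ± 0.84 (adjusted p = 0.532). MT-TS2 therefore rests on that library. The filter keeps a gene with at least 4.26 CPM, before TMM scaling, in 3 libraries. MT-TE, MT-TS2 and MT-TQ reached it in 0 untreated libraries and MT-TM in 1, so that they were tested only through libraries of treated cells, and a call of MT-TE, MT-TM or MT-TS2 as higher is favoured by the filter. The other 22 tested members reached it in all 15 libraries. MT-TI (isoleucine) had 62, 67 and 74 and 146, 45 and 42 counts and MT-TQ (glutamine), which overlaps MT-TI by 3 bases on the other strand, had 2, 4 and 7 and 3, 10 and 6 counts. Neither passed the test, at adjusted p = 0.0781 for MT-TI and 0.162 for MT-TQ.

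The 11 untested tRNAs summed to few counts over the 15 libraries: 84 for MT-TT, 55 for MT-TH, 44 for MT-TD, 21 for MT-TS1, 17 for MT-TR, 13 for MT-TL2, 6 for MT-TG, and 1 each for MT-TA and MT-TN. MT-TW and MT-TK had none. A count of 0 in a library allows a share of up to 8.5e-05% to 0.000199% of its counts, in counting error only. Differences in these genes between conditions were not tested at this depth, and oligo(dT) priming does not aim at tRNAs.

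**Figure D3:**
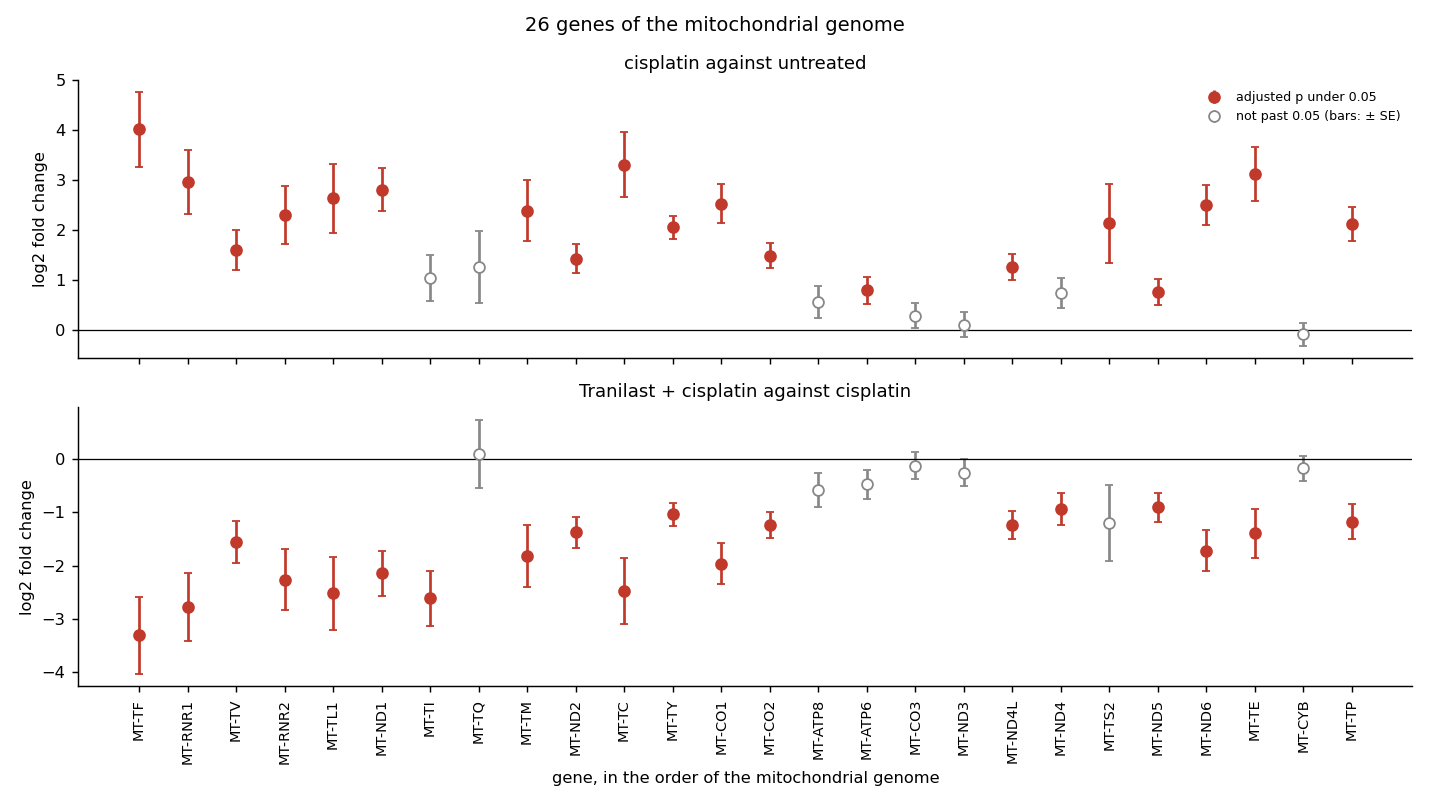
Log2 fold change ± SE (y axis) of the 26 tested members in genome order (x axis), for cisplatin against untreated cells (top) and for Tranilast with cisplatin against cisplatin alone (bottom); filled points are past an adjusted p of 0.05. In the top panel the points of MT-ATP8 to MT-ND3 and MT-CYB lie between -0.10 and 0.79, below those of MT-ND1, MT-ND2, MT-CO1 and MT-CO2 (1.42 to 2.80). In the bottom panel MT-CO3, MT-CYB and MT-ND3 lie between -0.25 and -0.13.

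The rise of the mRNAs ran with their position. Over the 12 mRNAs of the heavy-strand precursor, Spearman's rho between gene order and log2FC with cisplatin was -0.73, given as a description since the genes share a precursor and the same libraries. The median log2FC was 2.0 for the first 4 genes (MT-ND1, MT-ND2, MT-CO1 and MT-CO2) and 0.64 for the other 8. With Tranilast against cisplatin alone the rho was 0.62, and the medians were -1.67 and -0.53. Against untreated cells, Tranilast with cisplatin gave a rho of -0.82, with medians of 0.40 and -0.09. Telmisartan with cisplatin gave a rho of -0.59 against untreated cells, with medians of 1.49 and 0.13. The order with cisplatin alone against untreated cells was not strict: MT-ND4L, at a log2FC of 1.26 ± 0.26, stood above the 4 mRNAs before it in the genome.

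A ratio within each library was also taken for MT-ND1 and MT-CYB, the first and last mRNAs of the heavy-strand precursor. They also had the highest and lowest log2FC of these mRNAs with cisplatin. Their ratio is therefore a description and no separate support for the trend with position. The log2 ratio of MT-ND1 to MT-CYB counts was -1.41, -1.55 and -1.42 in untreated cells, 2.26, 0.99 and 0.60 with cisplatin and -0.40, -0.49 and -0.73 with Tranilast. It was 1.43, 1.90 and -0.10 in Telmisartan libraries and 1.81, 1.21 and 0.94 with Amphotericin B. MT-CYB counts exceeded those of MT-ND1 in every untreated and Tranilast library and in Telmisartan replicate 3, and MT-ND1 exceeded MT-CYB in the others. The Tranilast libraries lay above the untreated ones without overlap. The log2 ratio of rRNA to mRNA counts was -0.32, -0.57 and -0.67 in untreated cells, 1.95, 0.14 and 0.01 with cisplatin, 1.97, 2.13 and -0.13 in Telmisartan libraries and 2.16, 2.03 and 1.85 with Amphotericin B. The ratio with Tranilast was -0.50, -0.63 and -0.53. Here the Tranilast libraries lay within the untreated range.

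**Figure D4:**
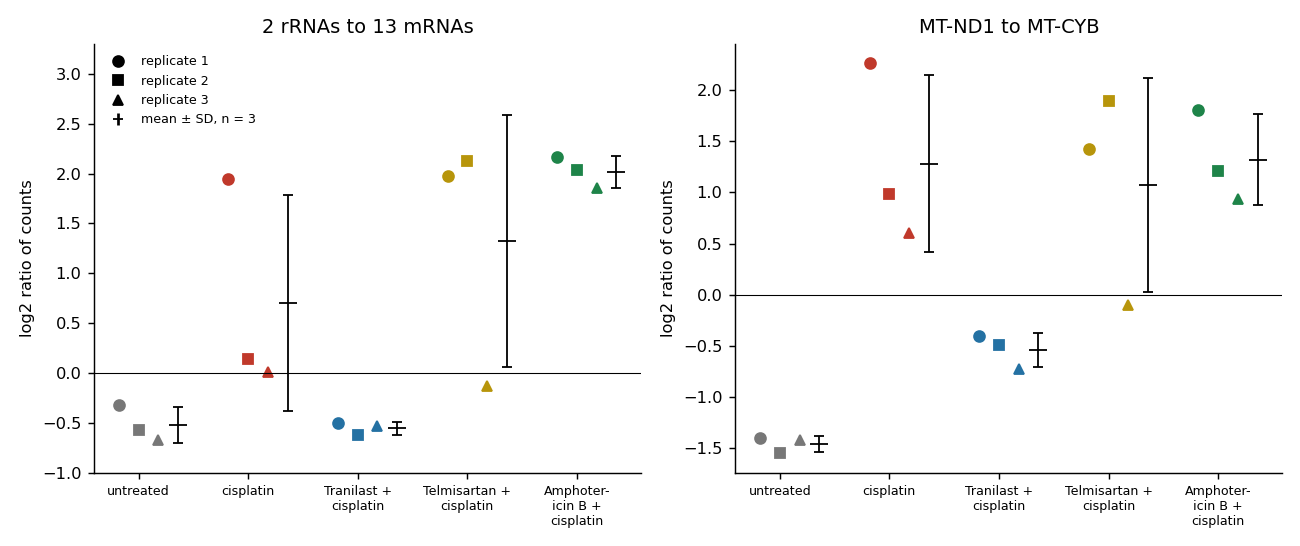
Log2 ratio of counts within each library (y axis) for the 2 rRNAs to the 13 mRNAs (left) and for MT-ND1 to MT-CYB (right), by condition (x axis), with marker shape for the replicate and bars for the mean ± SD (n = 3). Untreated and Tranilast libraries lie below 0 in both panels, and all 3 Amphotericin B libraries lie above 0.

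With Tranilast before cisplatin against cisplatin alone, 19 of 26 tested members were lower and 0 higher by edgeR. Over all genes, 11.6% were called lower and 10.5% higher. The 0 higher calls were the same by DESeq2 and limma-voom, and 0 members were higher at an unadjusted p under 0.05. The lower members were 8 of 13 mRNAs, both rRNAs and 9 of 11 tested tRNAs. The median log2FC of the members was -1.31, against 0.02 for all genes, and 17 of 26 members did not overlap, as in 40.3% of all genes. This comparison shares its cisplatin libraries with the one above, so that the values are only set side by side. The count fell to 12 without cisplatin replicate 1, to 12 without Tranilast replicate 2 and to 11 without Tranilast replicate 3, all lower. The calls lost without cisplatin replicate 1 were those of MT-ND4, MT-RNR2, MT-TL1, MT-TV, MT-TM, MT-TC and MT-TP.

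MT-ND1 stood at 949, 867 and 775 CPM with Tranilast, below each cisplatin library, with a log2FC of -2.14 ± 0.42 (adjusted p = 0.00324). MT-CO1 stood at 1146, 1062 and 942 CPM, with a log2FC of -1.96 ± 0.38 (adjusted p = 0.0031). MT-ND2 stood at 1604, 1266 and 1304 CPM (log2FC -1.37 ± 0.29, adjusted p = 0.00476) and MT-CO2 at 1379, 1315 and 1298 CPM (log2FC -1.24 ± 0.25, adjusted p = 0.00372). All 4 groups of Tranilast values lay below those of cisplatin alone. MT-ND4L at 376, 346 and 325 CPM (log2FC -1.24 ± 0.26, adjusted p = 0.00453) and MT-ND6 at 228, 214 and 197 CPM (log2FC -1.72 ± 0.38, adjusted p = 0.00569) were lower as well. MT-ND4 at 3324, 3169 and 2895 CPM and MT-ND5 at 1058, 924 and 806 CPM passed with smaller log2FC of -0.94 ± 0.31 (adjusted p = 0.0349) and -0.91 ± 0.27 (adjusted p = 0.0214). MT-ND4 was at -0.80 ± 0.32 (adjusted p = 0.0723) without cisplatin replicate 1.

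The rRNAs were lower with Tranilast: MT-RNR1 stood at 3500.4, 2937 and 2876 CPM (log2FC -2.78 ± 0.64, adjusted p = 0.00642) and MT-RNR2 at 16763, 14128 and 14278 CPM (log2FC -2.26 ± 0.57, adjusted p = 0.0108) on the log2 scale. Without cisplatin replicate 1, MT-RNR1 was at -1.56 ± 0.49 (adjusted p = 0.0269) and MT-RNR2 at -1.27 ± 0.47 (adjusted p = 0.0548), so the call of MT-RNR2 rests on that library. Among the tRNAs, MT-TF stood at 348, 328 and 281 CPM, with the largest decrease of any member (log2FC -3.31 ± 0.72, adjusted p = 0.0052). MT-TI stood at 7.03, 7.32 and 4.94 CPM, below the cisplatin values of 81.3, 21.9 and 16.6 CPM, with a log2FC of -2.62 ± 0.51 (adjusted p = 0.00328). MT-TI was thus lower although it had not passed the test with cisplatin. MT-TC (log2FC -2.48 ± 0.62), MT-TL1 (log2FC -2.52 ± 0.69), MT-TM (log2FC -1.82 ± 0.58), MT-TV (log2FC -1.55 ± 0.39), MT-TE (log2FC -1.40 ± 0.45), MT-TP (log2FC -1.17 ± 0.33) and MT-TY (log2FC -1.04 ± 0.22) were also past the threshold, and MT-TE and MT-TP overlapped between the groups. Of these 7 tRNAs, 5 were no longer past it without cisplatin replicate 1: MT-TL1 was at -1.13 ± 0.54 (adjusted p = 0.129), MT-TV at -0.95 ± 0.35 (adjusted p = 0.0558), MT-TM at -1.02 ± 0.58 (adjusted p = 0.202), MT-TC at -1.24 ± 0.50 (adjusted p = 0.0766) and MT-TP at -0.68 ± 0.29 (adjusted p = 0.0873). MT-TE stood at the edge, at -1.36 ± 0.49 (adjusted p = 0.0498), and MT-TF at -1.86 ± 0.54 (adjusted p = 0.0176).

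The other 5 mRNAs were not past the threshold with Tranilast, among them MT-ATP6, which had passed with cisplatin. MT-CO3 stood at 9304, 8923 and 8339 CPM (log2FC -0.13 ± 0.25, adjusted p = 0.75), MT-CYB at 1255, 1221 and 1285 CPM (log2FC -0.17 ± 0.23, adjusted p = 0.612) and MT-ND3 at 2299, 2310.5 and 2214 CPM (log2FC -0.25 ± 0.25, adjusted p = 0.483). MT-ATP8 and MT-ATP6 were at a log2FC of -0.58 ± 0.32 (adjusted p = 0.197) and -0.47 ± 0.27 (adjusted p = 0.215). These 5 mRNAs overlapped between the groups.

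Against untreated cells, 1 of 26 tested members was higher with Tranilast and cisplatin and 0 lower by edgeR, where 2.44% of all genes were higher and 5.65% lower. DESeq2 called 1 member lower and limma-voom 0, and 1 was lower at an unadjusted p under 0.05. The gene called was MT-TY, at 97.7, 85.6 and 87.7 CPM against 37.4, 47.8 and 48.6 CPM, with a log2FC of 1.02 ± 0.22 (adjusted p = 0.00858). MT-ND1 (log2FC 0.66 ± 0.41, adjusted p = 0.377), MT-CO1 (log2FC 0.56 ± 0.37, adjusted p = 0.411) and MT-ND6 (log2FC 0.78 ± 0.38, adjusted p = 0.244) had every Tranilast library above every untreated one without passing the test. MT-TI had every Tranilast library below the untreated ones (log2FC -1.59 ± 0.51, adjusted p = 0.0655). In all, 11 of 26 members did not overlap between these conditions, against 46.2% of all genes. When only the 6 libraries of this comparison entered the fit, 9 members were called higher and 1 lower, so that the count depends on which libraries give the spread. The call of MT-TY was lost without untreated replicate 1 and without Tranilast replicate 1.

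With Telmisartan before cisplatin against cisplatin alone, 0 of 26 tested members passed the test in either direction by edgeR. Over all genes 0% were called higher and 0% lower. DESeq2 and limma-voom also called 0 members, and 4 members had a negative log2FC with an unadjusted p under 0.05. The log2FC ran from -1.05 to 0.48, and all 26 members overlapped, where 9.27% of all genes did not. MT-RNR2 stood at 90011, 116995 and 23802 CPM, a log2FC of 0.09 ± 0.55 (adjusted p = 0.975), with replicate 3 far below replicates 1 and 2. MT-ND1 stood at 3005, 4279.8 and 1129 CPM (log2FC -0.44 ± 0.40, adjusted p = 0.755) and MT-CO1 at 3773, 3872 and 1434 CPM (log2FC -0.44 ± 0.37, adjusted p = 0.727), again with replicate 3 lowest. MT-ND3, with 1379, 1628 and 2179.9 CPM against 2038, 3659 and 2445 CPM, had the smallest adjusted p (0.383) at a log2FC of -0.65 ± 0.25. Without Telmisartan replicate 3 still 0 members passed, with MT-RNR1 at 0.75 ± 0.48 (adjusted p = 0.474). The spread of both conditions was wide, so these values do not show that the conditions were alike.

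Against untreated cells, 15 of 26 members were higher with Telmisartan and cisplatin and 0 lower by edgeR, with 12.8% of all genes higher and 15.8% lower. DESeq2 and limma-voom also called 0 lower, and 1 was lower at an unadjusted p under 0.05. MT-TE and MT-TM are among the 15, and the filter favours their calls as higher. The higher members included MT-TF at 4719, 5952 and 502 CPM (log2FC 4.25 ± 0.75, adjusted p = 5.62e-04), MT-RNR1 at 31818, 39827 and 5643 CPM (log2FC 3.23 ± 0.65, adjusted p = 0.00148) and MT-ND1 (log2FC 2.36 ± 0.42, adjusted p = 6.47e-04). In each of these, replicate 3 lay above the untreated libraries but far below the other 2. In 18 of 26 members these conditions did not overlap, as in 44.6% of all genes. Without Telmisartan replicate 3, 16 members were higher and 1, MT-ND3, lower at -0.75 ± 0.24 (adjusted p = 0.0206).

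With Amphotericin B before cisplatin against cisplatin alone, 3 of 26 tested members were higher and 3 lower. Over all genes, 4.21% were called higher and 9.01% lower. In 6 of 26 members the groups did not overlap, as in 24.6% of all genes. DESeq2 called 3 higher and 4 lower, and limma-voom 4 higher and 3 lower. The lower members were 3 mRNAs of the middle of the genome. MT-ATP8 stood at 957, 967 and 1019.9 CPM against 3010.1, 4126 and 2357 CPM, a log2FC of -1.69 ± 0.33 (adjusted p = 0.00598), or 3.22-fold lower. MT-ATP6 stood at 1983, 2035 and 2498 CPM against 3103, 5633 and 3144 CPM (log2FC -0.87 ± 0.27, adjusted p = 0.0432), and MT-ND3 at 933, 1405 and 1240.0 CPM against 2038, 3659 and 2445 CPM (log2FC -1.19 ± 0.25, adjusted p = 0.00846). The groups did not overlap for these 3. MT-CO3, which lies between MT-ATP6 and MT-ND3, was at 7124, 8380.0 and 8865 CPM against 8663, 11959 and 8391 CPM (log2FC -0.25 ± 0.25, adjusted p = 0.516). MT-ND2 was at 2284, 1504 and 2095 CPM, a log2FC of -0.88 ± 0.29 (adjusted p = 0.0522).

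The higher members were all tRNAs: MT-TV at 144, 132 and 233 CPM (log2FC 1.80 ± 0.37, adjusted p = 0.00729), MT-TM at 29, 47.8 and 66.7 CPM (log2FC 1.59 ± 0.51, adjusted p = 0.047) and MT-TP at 554, 426 and 563 CPM (log2FC 1.12 ± 0.33, adjusted p = 0.0331). MT-TV and MT-TP did not overlap between the groups. MT-TL1 stood at 9378, 7642 and 14571 CPM, above each cisplatin library, with the largest log2FC of the comparison, 1.96 ± 0.67, at adjusted p = 0.0583. MT-RNR1 stood at 46449.7, 44507 and 53090.3 CPM (log2FC 1.17 ± 0.60, adjusted p = 0.193) and MT-RNR2 at 134026, 103419 and 135742 CPM (log2FC 0.78 ± 0.55, adjusted p = 0.343). Both overlapped with cisplatin replicate 1. Without that library 10 members were higher and 3 lower, and MT-RNR1 was at 2.39 ± 0.55 (adjusted p = 0.00283). Without cisplatin replicate 2, 0 members passed in either direction, and without Amphotericin B replicate 1 or 3, 2 were lower and 1 higher.

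**Figure D5:**
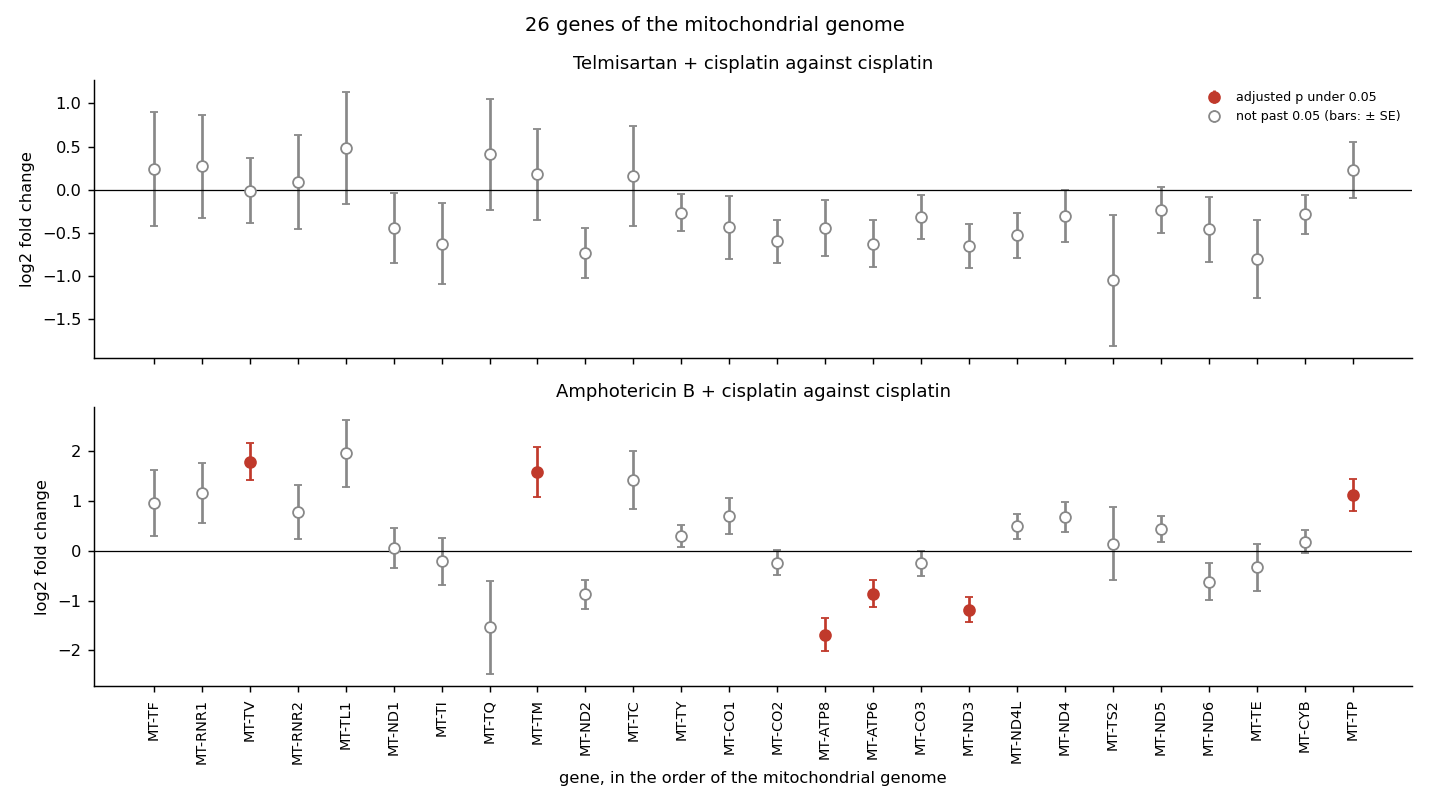
Log2 fold change ± SE (y axis) of the 26 tested members in genome order (x axis), for Telmisartan with cisplatin (top) and Amphotericin B with cisplatin (bottom), each against cisplatin alone; filled points are past an adjusted p of 0.05. No point is filled in the top panel; in the bottom panel MT-ATP8, MT-ATP6 and MT-ND3 are filled below 0 and MT-TV, MT-TM and MT-TP above 0.

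Against untreated cells, 18 of 26 members were higher with Amphotericin B and cisplatin and 2 lower, with 17.7% of all genes higher and 23.3% lower. MT-TE, MT-TM and MT-TS2 are among the 18, and the filter favours their calls as higher. The median over all genes stood at -0.19 on the log2 scale in this comparison, and the member median at 2.08. In 20 of 26 members the groups did not overlap, as in 58.7% of all genes. The 2 lower members were MT-ATP8 (log2FC -1.14 ± 0.32, adjusted p = 0.00988) and MT-ND3 (log2FC -1.09 ± 0.25, adjusted p = 0.00269). The largest rises were those of MT-TF at 7834, 4694 and 5920.5 CPM (log2FC 4.97 ± 0.78, adjusted p = 1.64e-04), MT-TC at 269, 368 and 647 CPM (log2FC 4.74 ± 0.68, adjusted p = 9.51e-05), MT-TL1 (log2FC 4.59 ± 0.75, adjusted p = 2.38e-04) and MT-RNR1 (log2FC 4.13 ± 0.68, adjusted p = 2.35e-04). Among mRNAs MT-CO1 rose most, to 6561, 4809.7 and 8619 CPM (log2FC 3.23 ± 0.40, adjusted p = 3.29e-05), while MT-CYB was at 1359, 1385 and 2078 CPM (log2FC 0.09 ± 0.23, adjusted p = 0.782). MT-ND4 at 8393, 7107 and 13299.6 CPM (log2FC 1.41 ± 0.31, adjusted p = 0.0018) and MT-ND5 at 2246, 1675 and 3159 CPM (log2FC 1.20 ± 0.27, adjusted p = 0.00204) were also past the threshold. Over the 12 heavy-strand mRNAs rho with gene order was -0.22 here, against -0.73 for cisplatin alone.

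The drug conditions, all of which include cisplatin, were also compared directly with each other. Tranilast and Amphotericin B lay farthest apart, with 17 of 26 members lower with Tranilast and 2 higher, where 16.4% of all genes were called lower and 19.7% higher. With library size as the only scaling the split was 15 lower and 5 higher. Among the lower members were MT-TV (log2FC -3.35 ± 0.40, adjusted p = 2.93e-04, edgeR), MT-CO1 (log2FC -2.67 ± 0.39, adjusted p = 8.07e-04), MT-ND4L (log2FC -1.74 ± 0.27, adjusted p = 8.72e-04) and MT-RNR1 (log2FC -3.95 ± 0.67, adjusted p = 0.00104). The 2 higher members were MT-ATP8 and MT-ND3. Against Telmisartan, 9 of 26 members were lower with Tranilast and 0 higher, where 1.75% of all genes were called lower and 0.585% higher. DESeq2 called 14 members and limma-voom 0, and 0 members had a positive log2FC with an unadjusted p under 0.05. All 9 adjusted p-values lay between 0.0412 and 0.0477, and leaving out any 1 of the Tranilast libraries took the count to 0. Between Telmisartan and Amphotericin B 0 of 26 members passed by edgeR, where 0% of all genes were called in either direction, while 13 members were past 0.05 before adjustment, 10 lower and 3 higher with Telmisartan. DESeq2 called 4 members and limma-voom 0.

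Copies of mitochondrial sequence in the nuclear genome share reads with the members. The genes named as such copies summed to 0.620% to 1.52% of the members' counts per library. The highest was MTND2P28 on chromosome 1, with 343, 514 and 646 counts in untreated and 1902, 1971 and 1069 counts in cisplatin libraries (log2FC 2.54 ± 0.32, adjusted p = 1.64e-05). MTND1P23, next to it, had 133, 162 and 343 and 1723, 938 and 512 counts (log2FC 3.20 ± 0.52, adjusted p = 1.34e-04). Both rose, as did MT-ND2 and MT-ND1. Of the copies of MT-RNR2, MTRNR2L12 had 83, 129 and 98 and 429, 125 and 129 counts (log2FC 1.98 ± 0.47, adjusted p = 0.00252) and MTRNR2L2 rose (log2FC 2.75 ± 0.58, adjusted p = 0.00115). MTND6P4 (log2FC 3.26 ± 0.42), MTCO3P12 (log2FC 2.12 ± 0.32), MTND4P12 (log2FC 1.54 ± 0.44), MTRNR2L10 (log2FC 4.27 ± 0.99) and MTCO1P40 (log2FC 1.37 ± 0.54) rose as well. Of the members they copy, MT-ND6, MT-RNR2 and MT-CO1 were also called higher. MT-CO3 and MT-ND4 were not called, although MTCO3P12 and MTND4P12 were. Conversely, MT-ATP6 and MT-RNR2 were called, whereas MTATP6P1, MTRNR2L8 and MTRNR2L1, given next, were not. Of the other copies with a mean of at least 10 counts, MTATP6P1 was at a log2FC of 0.73 ± 0.43 (adjusted p = 0.175), MTRNR2L8 at a log2FC of 1.73 ± 0.74 (adjusted p = 0.0646) and MTRNR2L1 at a log2FC of 1.20 ± 0.59 (adjusted p = 0.107). Counts of a member and of its copies can be split by the authors' counting, and the members with a near-identical copy are uncertain to that extent.

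Of 79 tested nuclear genes for the other subunits of the respiratory chain, 40 rose with cisplatin and 1 fell, where 21.1% of all genes rose and 23.6% fell. With cisplatin against untreated cells, the nuclear subunits of complex I were 17 of 37 higher and 1 lower (median log2FC 0.65), those of complex III 7 of 9 higher and 0 lower (median log2FC 0.82), those of complex IV 8 of 11 higher and 0 lower (median log2FC 0.98) and those of complex V 8 of 18 higher and 0 lower (median log2FC 0.64), against a median of -0.01 over all genes. Complex II, which has no mitochondrially encoded subunit, had 0 of 4 higher and 0 lower by edgeR. NDUFS3 (log2FC 0.89 ± 0.18, adjusted p = 7.07e-04) and NDUFA6 (log2FC 1.02 ± 0.22, adjusted p = 0.00158) led complex I, UQCR10 (log2FC 1.31 ± 0.30) and UQCRH (log2FC 1.45 ± 0.36) complex III, COX6B1 (log2FC 1.67 ± 0.37) and NDUFA4 (log2FC 1.52 ± 0.35) complex IV, and ATP5F1E (log2FC 1.21 ± 0.37) and ATP5MG (log2FC 1.01 ± 0.31) complex V. The 40 higher calls fell to 18 of 79 without cisplatin replicate 1, near the 21.6% of all genes called higher in that fit, and 0 of 18 subunit genes of complex V were then called. ATP5F1E was at an adjusted p of 0.0828 and ATP5MG at 0.0753 without it. The count was between 21 and 25 without 1 of the untreated libraries. With library size as the only scaling, 16 rose and 5 fell.

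With Tranilast against cisplatin alone, 43 of the 79 nuclear subunit genes were lower and 0 higher, where 11.6% of all genes were lower and 10.5% higher, and 0 were higher by DESeq2 and limma-voom. They comprised 19 of 37 for complex I, 5 of 9 for complex III, 9 of 11 for complex IV and 10 of 18 for complex V. Those with the smallest adjusted p were NDUFA6 (log2FC -0.98 ± 0.22, adjusted p = 0.00639) and NDUFA12 (log2FC -1.25 ± 0.30), UQCRB (log2FC -1.40 ± 0.31) and UQCRH (log2FC -1.56 ± 0.36), COX6B1 (log2FC -1.70 ± 0.37) and COX7B (log2FC -1.64 ± 0.37), and ATP5MPL (log2FC -1.27 ± 0.29) and ATP5PD (log2FC -1.84 ± 0.43). Without cisplatin replicate 1 the count was 25 lower and 1 higher (11.6% and 12.4% of all genes), and it was 19 to 27 lower without 1 of the Tranilast libraries. With Amphotericin B 5 of 79 were higher and 0 lower, where 4.21% of all genes were higher and 9.01% lower: NDUFS7 (log2FC 1.22 ± 0.32, adjusted p = 0.0204), NDUFB7 (log2FC 1.29 ± 0.36), CYC1 (log2FC 0.88 ± 0.24) and ATP5PB (log2FC 0.77 ± 0.25), and NDUFA11 (log2FC 1.08 ± 0.32), named after its value was seen. This count was 39 without cisplatin replicate 1, where 15.7% of all genes were higher, and 0 without cisplatin replicate 2 or 3. With Telmisartan 0 of 79 passed by edgeR, DESeq2 or limma-voom.

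Of the 9 genes of mitochondrial transcription, 3 rose and 1 fell with cisplatin (21.1% and 23.6% of all genes), 1 was higher and 2 lower with Tranilast (10.5% and 11.6% of all genes), and 2 were lower with Amphotericin B (9.01% of all genes). TFAM, which packages mitochondrial DNA and starts its transcription, rose with cisplatin (log2FC 1.77 ± 0.18, adjusted p = 5.70e-06) and was lower with Tranilast (log2FC -1.24 ± 0.18, adjusted p = 0.00114) and with Amphotericin B (log2FC -0.74 ± 0.18, adjusted p = 0.0156) than with cisplatin alone. MTERF1, which binds downstream of the rRNA genes, was called in the same directions, at a log2FC of 1.51 ± 0.39, -1.45 ± 0.39 and -2.36 ± 0.52 in that order. MTERF1 was low, at 3.64 ± 0.99 CPM in untreated cells and 10.3 ± 4.54 with cisplatin (with TMM factors, SD, n = 3). It stood at 3.74 ± 0.37 CPM with Tranilast and 1.94 ± 1.43 with Amphotericin B, so its calls rest on low counts. These shares of all genes apply to each list named next. TWNK, the mitochondrial DNA helicase, rose (log2FC 1.5 ± 0.21, adjusted p = 4.50e-05) and was lower with Tranilast (log2FC -1.30 ± 0.21) and Amphotericin B (log2FC -0.94 ± 0.22). POLG2, the accessory subunit of the mitochondrial DNA polymerase, rose (log2FC 1.38 ± 0.30) and was lower with Tranilast (log2FC -1.32 ± 0.30). Of the 14 replication and maintenance genes, 5 rose and 2 fell with cisplatin, 3 were lower with Tranilast and 2 lower with Amphotericin B, where SLC25A36 was the one with the smallest adjusted p (log2FC -1.25 ± 0.22). The transcription genes gave the same counts with cisplatin and with Tranilast when cisplatin replicate 1 was left out, and 3 were then lower with Amphotericin B. TFAM and MTERF1 were called lower with Amphotericin B than with cisplatin alone, where MT-RNR1 and MT-RNR2 were not called in either direction. Without cisplatin replicate 1, MT-RNR1 was called higher there, as given above. A link between these genes and the rRNAs was not tested.

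Of the 20 tested processing and decay genes, 8 rose and 3 fell with cisplatin, 2 were higher and 3 lower with Tranilast, and 1 was higher and 2 lower with Amphotericin B. The counts with Tranilast and Amphotericin B lay near the shares of all genes called. Those shares, higher and lower, were 10.5% and 11.6% with Tranilast and 4.21% and 9.01% with Amphotericin B. With cisplatin they were 21.1% and 23.6%. LRPPRC, which binds and stabilises the mitochondrial mRNAs, fell with cisplatin by a log2FC of -1.36 ± 0.17 (adjusted p = 1.70e-05), while TBRG4 rose (log2FC 1.43 ± 0.24, adjusted p = 1.82e-04). SLIRP, the partner of LRPPRC, was lower with Tranilast than with cisplatin alone (log2FC -1.31 ± 0.34, adjusted p = 0.0125), and PNPT1, a mitochondrial RNA-degrading enzyme, was higher (log2FC 0.82 ± 0.22, adjusted p = 0.013). FASTKD5 (log2FC -1.69 ± 0.33, adjusted p = 0.00638), needed to mature precursor ends that lack a tRNA, and DDX28 (log2FC -1.07 ± 0.27) were lower with Amphotericin B. Of the 19 tested RNA modification genes, 7 rose and 6 fell with cisplatin, 4 were higher and 3 lower with Tranilast, and 3 were lower with Amphotericin B. MRM2, a methyltransferase of MT-RNR2, rose (log2FC 1.5 ± 0.21, adjusted p = 3.84e-05) and was lower with Amphotericin B (log2FC -1.23 ± 0.22), as was GTPBP3 (log2FC -0.81 ± 0.24), a tRNA modification enzyme. TRMU, another, rose with cisplatin (log2FC 1.24 ± 0.23). With Tranilast TRUB2 was lower (log2FC -0.89 ± 0.20) and METTL8 higher (log2FC 1.12 ± 0.27). The processing genes again gave 8 higher and 3 lower with cisplatin when replicate 1 was left out, and 2 higher and 5 lower with Tranilast.

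Of the 15 tested mitochondrial stress response genes, 3 rose and 8 fell with cisplatin, 3 were higher and 1 lower with Tranilast, and 1 was higher and 1 lower with Amphotericin B. Among all genes, 21.1% rose and 23.6% fell with cisplatin. The shares higher and lower were 10.5% and 11.6% with Tranilast and 4.21% and 9.01% with Amphotericin B. DDIT3, a transcription factor of the stress response, fell with cisplatin (log2FC -1.78 ± 0.27, adjusted p = 8.02e-05) and was higher with Tranilast (log2FC 1.54 ± 0.27) and Amphotericin B (log2FC 0.96 ± 0.28) than with cisplatin alone. HSPA9, the mitochondrial HSP70 chaperone, fell with cisplatin (log2FC -0.91 ± 0.16, adjusted p = 3.28e-04), and GDF15, a secreted stress factor, was higher with Tranilast (log2FC 2.21 ± 0.50, adjusted p = 0.00603). CLPX was lower with Amphotericin B (log2FC -0.94 ± 0.27). Of the 10 tested mitophagy genes 2 rose and 3 fell with cisplatin, 1 was higher and 1 lower with Tranilast, and 0 passed with Amphotericin B by edgeR, with counts near the shares of all genes for cisplatin and Tranilast. SQSTM1 was at a log2FC of 1.12 ± 0.19 and CALCOCO2 at a log2FC of -1.21 ± 0.26 with cisplatin, and with Tranilast CALCOCO2 was higher (log2FC 1.06 ± 0.26) and PHB2 lower (log2FC -0.55 ± 0.19), the latter at an adjusted p of 0.114 without cisplatin replicate 1. Of the 9 tested regulators of mitochondrial biogenesis, a list that also holds TFAM, 2 rose and 3 fell with cisplatin, 2 were lower with Tranilast and 1 lower with Amphotericin B. ESRRA, a nuclear receptor of that group, was at a log2FC of 0.96 ± 0.30 with cisplatin and -0.86 ± 0.30 with Tranilast, where it was at an adjusted p of 0.0868 without cisplatin replicate 1. With Telmisartan against cisplatin alone, 0 genes of these lists passed by edgeR, as was so for all 11113 genes.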

How the data were processed

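RNA from IGROV-CP20 cells was sequenced with a 3′ mRNA kit primed by oligo(dT), in 3 libraries for each of 5 conditions. The authors deposited raw read counts per gene, 1 table per library, for 47634 identifiers. The submitters' processing notes name STAR 2.3.0, HTSeq and hg19; the strand setting, the treatment of reads with several matches and the annotation release are not given in the sources used here. Identifiers were matched to GENCODE 29 (45776 matched), from which the GRCh38 coordinates and the sequences were taken. The genes of the mitochondrial genome are all 37 that this annotation places on chromosome M. They and the gene lists were chosen with earlier results of these data known.

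Counts were analysed with edgeR 4.0.16 (quasi-likelihood test) in R 4.3.3, with TMM scaling, the filterByExpr filter (11113 genes, 26 of them members) and 1 fit of all 15 libraries. P-values were adjusted by Benjamini-Hochberg over all genes tested, at a threshold of 0.05. Levels of members in CPM (counts scaled to library size with TMM factors) carry an SD over 3 libraries. CPM of cell type markers and of nuclear RNAs without a tail were scaled to library size only. Shares and ratios were described without a test. In data simulated for Tranilast with cisplatin against cisplatin, on 11113 genes, 136 of 200 changed genes were found and 3 unchanged genes were called. The simulated libraries were drawn independently, with the same spread of a gene in every condition. They held no library that stands apart, as cisplatin replicate 1 does, so these numbers need not hold for the real data. Libraries held 1510620 to 3517041 counts, and no molecular identifiers are named, so that a low count carries counting error and library preparation error. The methods call the replicates biological and describe repeats on separate days; the labels do not give the day of a library.

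The text names all members, the 2 genes of each list with the smallest adjusted p past the threshold in cisplatin against untreated cells and in each drug against cisplatin, and nuclear copies with a mean of at least 10 counts. The alternatives tried were RLE, upper quartile, library size and nuclear gene scaling, 2 other filters, DESeq2 1.42.0, limma-voom (limma 3.58.1), a replicate block, fits of the 6 libraries compared, a threshold of 0.01, leaving out each library, nuclear gene counts as the denominator of shares, and other sums for the ratio of rRNA to mRNA. The count of nuclear respiratory chain genes under each setting, and the pathway lists and RNAs without a tail when cisplatin replicate 1 was left out, were added after seeing the data.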

Additional observations from a re-analysis of the deposited data

Results flagged for a closer look

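Counts of mitochondrial genome genes with Tranilast differed from those with each of the other two drugs. Each difference was tested directly, as an edgeR contrast between the drug conditions, which share cisplatin. No library of a drug without cisplatin was analysed here. A drug's own effect therefore cannot be told apart from its effect on the response to cisplatin.

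Between Tranilast and Telmisartan, 9 of 26 members differed, and all 9 were lower with Tranilast, where 1.75% of all genes were called lower and 0.585% higher. MT-TF differed most, at a log2 fold change of -3.55 ± 0.73 (SE; adjusted p = 0.0412, edgeR), with 319 CPM ± 34 with Tranilast and 3724 ± 2858 with Telmisartan (SD, n = 3). MT-RNR1, MT-RNR2, MT-ND1, MT-CO1, MT-TV, MT-TL1, MT-TC and MT-TP were the other 8. The count was 14 without Telmisartan replicate 3, 5 without cisplatin replicate 2, and 0 without Telmisartan replicate 1 or 2 or without any single untreated, Tranilast or Amphotericin B library.

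Between Tranilast and Amphotericin B, 19 of 26 members differed. With Tranilast 17 were lower and 2, MT-ATP8 and MT-ND3, higher, where 16.4% of all genes were called lower and 19.7% higher. MT-TL1, a leucine tRNA, differed most, at a log2 fold change of -4.48 ± 0.75 (SE; adjusted p = 0.00104, edgeR), with 472 CPM ± 24 with Tranilast and 10530 ± 3605 with Amphotericin B (SD, n = 3). These groups did not overlap. MT-ATP8 (log2 fold change 1.11 ± 0.32, adjusted p = 0.0145) and MT-ND3 (0.93 ± 0.25, adjusted p = 0.0094) lay the other way.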

How the results depend on the processing

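Of 108 calls of a member in a comparison, 0 changed sign under any alternative, whereas of the 152 pairs of a member and a comparison not past the threshold 49 did. With library size as the only scaling the median of all genes lay at up to 0.81 (log2, Tranilast against Amphotericin B), against 0.15 with TMM. Calls held under every alternative for 15 of 19 members for cisplatin against untreated cells, 9 of 19 for Tranilast against cisplatin, and 0 of 6 for Amphotericin B against cisplatin.

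For Tranilast against cisplatin, 10 members passed at a threshold of 0.01, and 11 to 19 did when 1 library was left out (12 without cisplatin replicate 1 or Tranilast replicate 2, 11 without Tranilast replicate 3). For Amphotericin B against cisplatin the count was 12 with no filter, 2 in the fit of 6 libraries, 3 at 0.01 and 0 to 13 without 1 library. For Tranilast against untreated cells it was 2 with library size, 7 with no filter, 3 with DESeq2, 10 in the fit of 6 libraries and 0 to 4 without 1 library. For Tranilast against Telmisartan it was 5 with upper quartile scaling, 14 with DESeq2, 0 with library size, limma-voom, 6 libraries or 0.01, and 0 to 14 without 1 library. For Telmisartan against Amphotericin B it was 0, with 13 at an unadjusted p under 0.05, but 10 with no filter, 4 with DESeq2, 0 with limma-voom and 0 to 7 without 1 library. The nuclear respiratory chain genes called were 21 with library size, 16 at 0.01 and 19 to 52 without 1 library for cisplatin against untreated cells. For Tranilast against cisplatin they were 24, 17 and 19 to 58, and for Amphotericin B against cisplatin 1 in the fit of 6 libraries, 0 at 0.01 and 0 to 39 without 1 library. The cause of these changes was not tested.

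With nuclear gene counts as the denominator, the share with Amphotericin B was 4.16% for mRNA, 16.7% for rRNA and 1.75% for tRNA, and that of tRNA with Tranilast 0.140%, larger because the denominator is smaller. The log2 ratio of rRNA to mRNA was also taken without MT-ND1, MT-ND2, MT-CO1, MT-CO2, MT-ATP8, MT-ATP6 and MT-CO3, because of copies in the nuclear genome. Some of the mRNAs kept, such as MT-ND4 and MT-ND6, have named copies too, so copied mRNAs were removed only in part. This ratio was 0.94 in untreated cells, 2.44 with cisplatin, 3.0 with Telmisartan, 1.15 with Tranilast and 3.43 with Amphotericin B, since fewer mRNAs were summed. With MT-RNR2 alone it was -0.77 in untreated cells, -0.82 with Tranilast, 0.35 with cisplatin (0.70 with both rRNAs), 0.93 with Telmisartan (1.32) and 1.54 with Amphotericin B; cisplatin replicates 2 and 3 then moved from 0.14 and 0.01 to -0.19 and -0.30.

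The replicate numbers were not taken as pairs: the mean correlation of deviations between libraries of the same number ran from -0.13 to 0.26 over the pairs of conditions. With the replicate block, 2 members passed for Tranilast against untreated cells and 9 respiratory chain genes for Amphotericin B against cisplatin. The other counts stayed within 1.5 times, such as 19 for cisplatin against untreated cells and 8 for Amphotericin B against cisplatin.

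In limits, 11 members were too low to test, 3 libraries a condition leave wide errors where cisplatin and Telmisartan libraries vary, and counts of oligo(dT)-primed ends may not follow the amount of an RNA without a poly(A) tail.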
